A study of Drosophila melanogaster with 6 samples.

Results

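Genes of the germ plasm and of germ cells were examined in sorted cells of Drosophila embryos. Of 10 listed genes, 9 were measured by 11 probe sets that carry their symbol alone, out of 10844 named genes and 13966 probe sets tested. They were tud, vas, osk, aub, piwi, gcl, stau, ovo and bam. The remaining listed gene is not analysed here. For each gene the probe set with the highest mean over all arrays was used. stau and ovo had 2 probe sets each, and both are given.

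All embryos carried the TinD-GFP reporter insertion, which per the labels directs GFP to cardiac mesoderm, and were between late stage 11 and early stage 12. Their cells were dissociated, and RNA was taken from GFP-positive cells on 3 arrays and from GFP-negative cells, the remaining cells of the same kind of embryo, on 3 arrays. Neither group was sorted for or against germ cells. Whether the replicates stem from separate collections of embryos is not stated in the labels, so the p-values measure a spread between samples that may be technical. In sorted pools, fewer cells of a type and less RNA per cell cannot be told apart.

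Germ plasm is the cytoplasm at the posterior pole of the fly egg that is built from maternal RNA and protein and directs pole cells, the germ cell precursors, to form. osk starts its assembly, and the helicase encoded by vas and the scaffold encoded by tud are recruited in turn. The pole cells later cross the midgut wall and join mesodermal cells that make the somatic gonad. The PIWI proteins encoded by aub and piwi use small RNAs, the piRNAs, to silence transposons in the germline. Several of these genes also leave maternal transcripts in the whole embryo or act in somatic cells.

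Values are log2 signals as deposited. A signal counts as low where it lies at or below 2.44, the highest mean among 23 control probe sets for sequences that flies do not have. The brightest such control of each array had a signal of 2.58 to 3.55. Array medians were 3.71 to 3.73. Bacterial spike-in probe sets averaged 8.06 on GFP-negative replicate 1 and 8.88 to 9.26 on the other arrays. The 18S rRNA probe sets averaged 6.53 and 6.54 on both arrays numbered 3, against 4.40 to 5.00 on the others. The part of these array differences in the results below was not tested, and each call is also given without single arrays.

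Among the germ plasm and germ cell genes, tud rose in GFP-positive cells and the other 8 did not pass the test. The test was limma with a prior variance that follows signal level, 2-sided, with Benjamini-Hochberg adjustment over all probe sets and a threshold of 0.05. By the same rule 2.47% of all genes passed, 1.5% as higher and 0.968% as lower. At an unadjusted p under 0.05, 2 members passed, tud and bam, where 15.6% of all genes did. Of the 9 genes, 7 had a higher mean in GFP-positive cells, where 5133 of all 10844 genes did. The median log2 difference of the 9 genes was 0.32, beside -0.02 over all genes. The 3 largest differences belonged to bam, vas and piwi, whose GFP-negative means lay below the control level. Over the 7 genes with a mean over all arrays above that level, bam among them, the median was 0.19.

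**Figure D1:**
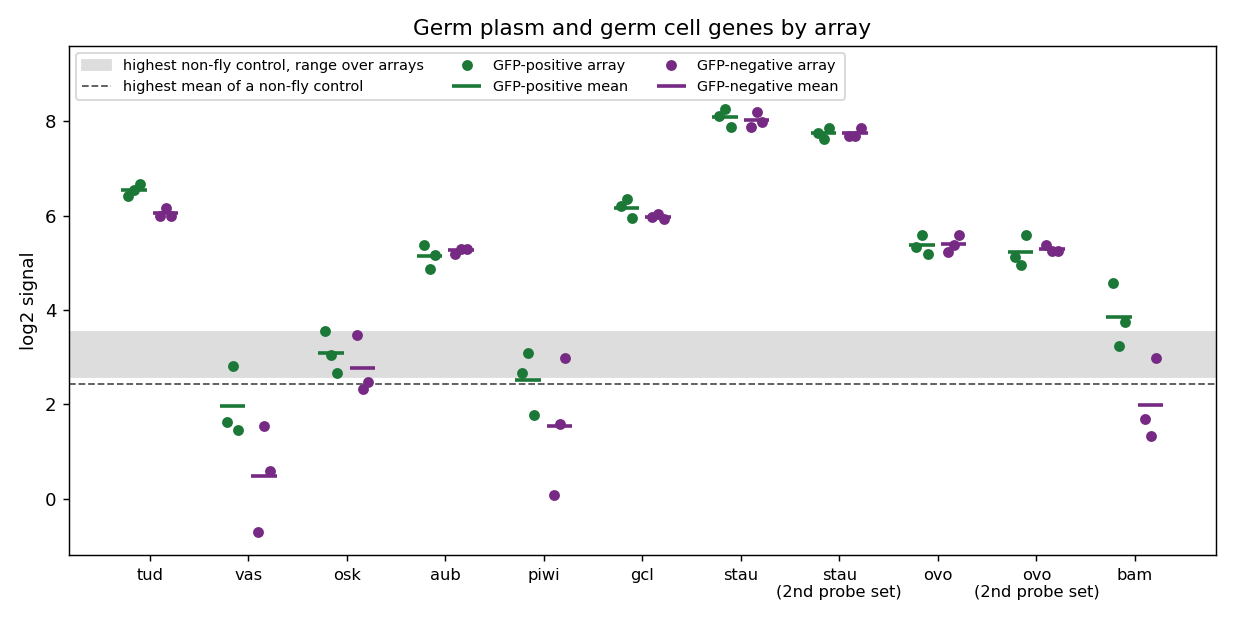
Log2 signal (vertical axis) of the 11 probe sets of germ plasm and germ cell genes (horizontal axis). Each point is 1 array, short bars are group means, the dashed line is the control level of 2.44 and the grey band spans the highest non-fly control of each array. tud and bam are the genes whose groups do not overlap, and vas, piwi, osk and the GFP-negative values of bam lie in or near the control range.

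The genes tud, aub, gcl, stau and ovo exceeded the highest non-fly control on all 6 arrays. osk and bam had a mean over all arrays of 2.93 each, above the control level, but exceeded the array's own highest control on 1 and 2 arrays. piwi and vas had means of 2.03 and 1.22, below the control level. piwi exceeded the array's highest control on 1 array, and vas on 0 of 6. The spread of signals rises at low level: the median within-group SD was 0.72 for probe sets with means of 2 to 4 and 0.11 for those of 6 to 8.

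tud encodes the founding Tudor-domain protein, a germ plasm scaffold that binds methylated arginines of PIWI proteins. Its log2 signals were 6.42, 6.54 and 6.67 on GFP-positive replicates 1 to 3 and 5.99, 6.15 and 6.001 on GFP-negative replicates 1 to 3. Every GFP-positive array was above every GFP-negative array. The group means were 6.55 ± 0.13 and 6.05 ± 0.09 (SD, n = 3 each), a rise of 0.50 ± 0.10 (SE, limma adjusted p = 0.0398). This is 1.41-fold, with a 95% interval of 1.21 to 1.65. Groups without overlap, with GFP-positive cells higher, occurred in 9.28% of all genes, and with GFP-positive cells lower in 11%.

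The call of tud was close to the threshold. Leaving out any 1 of the 6 arrays kept the difference between 0.43 and 0.56 but ended the call (limma adjusted p from 0.0670 without GFP-positive replicate 1 to 0.146 without GFP-negative replicate 3). It did not pass either when limma used 1 prior variance at every signal level (adjusted p = 0.321), a fit in which 0 of 13966 probe sets (0%) passed. At an unadjusted p under 0.05 that limma fit gave 1482 probe sets, 10.6% of them.

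**Figure D2:**
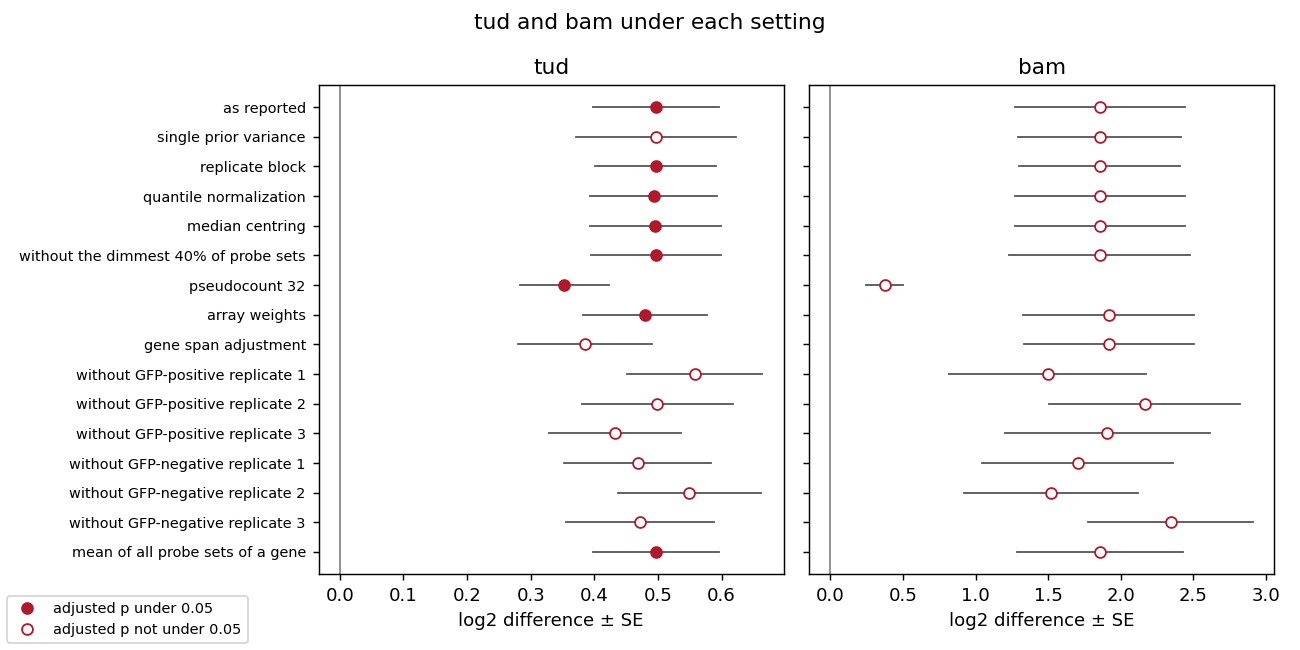
Log2 difference ± SE of tud (left) and bam (right), GFP-positive minus GFP-negative, on the horizontal axes under each processing setting on the vertical axis. Filled points have an adjusted p under 0.05. tud stays between 0.35 and 0.56 and loses the call with a single prior variance, after the gene span adjustment and without any 1 array, and bam is called in none of the settings.

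vas, a DEAD-box RNA helicase and a common marker of germ cells, stayed below the highest non-fly control of every array. Its values were 1.63, 2.81 and 1.46 on the GFP-positive and -0.69, 1.54 and 0.58 on the GFP-negative arrays. The groups overlapped, since GFP-negative replicate 2 lay above GFP-positive replicate 3. Both means were below the control level, so no fold is given (limma adjusted p = 0.389). The reference gene table also places solo and vig at the vas locus, where their spans overlap that of vas. The mean log2 signal of vig was 8.02 in the reporter-positive and 7.81 in the reporter-negative cells, and it was not called (limma adjusted p = 0.469).

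osk, the organiser of germ plasm, had log2 signals of 3.55, 3.05 and 2.66 in GFP-positive, and 3.48, 2.34 and 2.48 in GFP-negative, cells. The groups overlapped, and replicate 1 was the highest array in both. The difference was 0.32 ± 0.50 (SE, limma adjusted p = 0.842), and it was 0.092 without GFP-positive replicate 1 and 0.68 without GFP-negative replicate 1. Its 95% interval ran from -0.81 to 1.46, which includes a 2-fold rise but not a 2-fold fall. Low signal limits both readings.

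aub encodes a PIWI protein of the nuage, the perinuclear granules of germline cells. It was well measured, with 5.39, 4.87 and 5.18 in GFP-positive, and 5.20, 5.30 and 5.30 in GFP-negative, cells. GFP-positive arrays lay on both sides of the GFP-negative ones. The difference was -0.12 ± 0.16 (SE, limma adjusted p = 0.807), and its 95% interval, 0.718-fold to 1.18-fold, leaves room for a modest change either way.

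piwi encodes the PIWI protein that acts in the nucleus, in germline and somatic gonad cells. Its signals were 2.67, 3.09 and 1.77 in GFP-positive, and 0.08, 1.59 and 2.98 in GFP-negative, cells. The groups overlapped, and GFP-negative replicate 1 was far below the other arrays. The GFP-negative mean and the mean over all arrays lay below the control level, so no fold is given (limma adjusted p = 0.665). In the reference gene table piwi and aub are near neighbours on chromosome arm 2L, with 1 annotated gene, CG12253, between them.

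Of the other genes of the piRNA pathway, 23 were measured of 26 listed. None passed the limma test in either direction, and 1 had an unadjusted p under 0.05, where 15.6% of all genes did. GFP-positive means were lower in 17 of the 23, where 5711 of all 10844 genes were lower. The median log2 difference of the list was -0.27 beside -0.02 over all genes. It was also -0.27 over the 15 genes with a mean over all arrays above the control level. With a pseudocount of 32 on the linear scale the list median was -0.049. The brightest of them were the nuclear export factor relative nxf2, with means (± SD, n = 3 each) of 6.73 ± 0.20 in GFP-positive against 6.92 ± 0.07 in GFP-negative cells, and the exonuclease gene Nbr, with 6.18 ± 0.15 and 6.25 ± 0.27. cuff, a protein of piRNA cluster transcription, and tej, a Tudor-domain protein, were singled out after their values were seen, as the members with groups that did not overlap. cuff had means of 2.56 ± 1.53 and 4.56 ± 0.24 (SD), and tej of 3.74 ± 0.37 and 4.35 ± 0.21, with limma adjusted p-values of 0.197 and 0.353. Both were lower in GFP-positive cells. Groups without overlap in this direction thus occurred in 2 of the 23 genes, beside 11% of all genes. cuff exceeded its array's highest control on 1 of the 3 GFP-positive arrays, and GFP-positive replicate 3 was at 0.80.

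gcl encodes a BTB-domain protein that pole cells need to form. Its log2 signals were 6.20, 6.35 and 5.95 in GFP-positive, and 5.98, 6.03 and 5.93 in GFP-negative, cells. GFP-positive replicates 1 and 2 were above all GFP-negative arrays, and replicate 3 was among them. The difference of 0.19 ± 0.12 did not pass (SE, limma adjusted p = 0.528). Without GFP-positive replicate 3 it was 0.30, and without GFP-positive replicate 2 it was 0.10. The 95% interval was 0.949-fold to 1.37-fold.

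Other genes of pole cell formation and of germ cell migration, 10 measured of 12, had a median of -0.12, with 4 higher and 6 lower. None passed the limma test. Of the 10, 4 had an unadjusted p under 0.05, where 15.6% of all genes did. These were pgc, higher, and wun2, vls and CycB, lower in GFP-positive cells. pgc, which holds back transcription in pole cells, had 4.84, 4.32 and 4.78 in GFP-positive, and 4.32, 3.86 and 3.95 in GFP-negative, cells. The lowest GFP-positive and the highest GFP-negative array nearly met, and the difference was 0.61 ± 0.24 (SE, limma adjusted p = 0.273). The cyclin gene CycB, whose mRNA is also kept in pole cells, differed by -0.17 ± 0.07, and Fpps, an enzyme of isoprenoid synthesis in the migration pathway, by -0.08 ± 0.07. wun2, a lipid phosphatase that guides migrating germ cells, was picked after its values were seen, for the smallest p of the group. It averaged 7.54 ± 0.06 in GFP-positive against 7.83 ± 0.06 in GFP-negative cells (SD, limma adjusted p = 0.0671).

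A set of 5 germ cell markers was also summed on the linear scale, and 3 of them, vas, pgc and the germline gap junction gene zpg, were measured. The summed signal was 46.1 to 49.0 on GFP-positive and 23.9 to 39.2 on GFP-negative arrays, without overlap. By itself pgc also had groups without overlap, which in this direction occurred in 9.28% of all genes. The sum rests mainly on pgc and zpg, which are also in the list of pole cell genes, where 6 of 10 had a lower mean in GFP-positive cells. zpg had log2 means of 4.13 ± 0.28 and 3.46 ± 0.72 (SD, limma adjusted p = 0.500). vas, the defining marker among them, did not rise above the controls on any array. The part of these markers in the difference of tud was not tested.

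stau encodes a double-stranded RNA binding protein that localises mRNA, among them osk mRNA in the oocyte and pros mRNA in dividing neuroblasts. Its probe set with the higher mean gave 8.12, 8.26 and 7.89 in GFP-positive, and 7.89, 8.21 and 7.98 in GFP-negative, cells. The groups overlapped throughout. The difference was 0.06 ± 0.11 (SE, limma adjusted p = 0.870), and the second probe set differed by -0.003 ± 0.08, with means of 7.75 in both groups. The 95% interval was 0.875-fold to 1.25-fold for the first and 0.876-fold to 1.14-fold for the second.

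Genes that localise osk and related mRNAs or control their translation, 21 measured of 28, had a median log2 difference of 0.23. GFP-positive means were higher in 18 of the 21, where 5133 of all 10844 genes were higher. The list median was 0.086 with a pseudocount of 32. Of the 21, 1 rose, 0 fell and 20 did not pass, where 1.5% of all genes rose. At an unadjusted p under 0.05 (limma), 7 of the 21 passed, where 15.6% of all genes did. Groups did not overlap for 6 higher genes and 1 lower gene, beside 9.28% and 11% of all genes. The called gene was par-1, a kinase of cell polarity, with 5.57 ± 0.06 against 5.01 ± 0.07 (SD, n = 3 each) and a limma adjusted p of 0.0498. Its other probe sets did not show this: they differed by -0.06 ± 0.16 and 0.11 ± 0.24 (SE), and the mean of all par-1 probe sets differed by 0.20 with an adjusted p of 0.613. The call was lost without any 1 array, with differences of 0.53 to 0.60 (limma adjusted p from 0.101 to 0.168). It was also lost with the replicate number as a block (limma adjusted p = 0.0787), with quantile normalization (0.0505), with a pseudocount of 32 (0.0521) and with a single prior variance (0.252). The brightest genes were Hrb27C, an RNA-binding protein, with a difference of 0.29 ± 0.10, and glo, the fly hnRNP F/H protein, with 0.02 ± 0.06. Imp and brat, an mRNA-binding protein and a translational repressor, were picked after their values were seen, as next in order of p. They differed by 0.54 ± 0.12 and 0.34 ± 0.08 (limma adjusted p = 0.0586 and 0.0652).

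ovo encodes zinc finger transcription factors, a germline form that females need and the shavenbaby form of the epidermis. Its probe set with the higher mean gave 5.34, 5.59 and 5.20 in GFP-positive, and 5.24, 5.38 and 5.59 in GFP-negative, cells. The second gave 5.13, 4.96 and 5.60 against 5.37, 5.25 and 5.26. The groups overlapped in both. The differences were -0.03 ± 0.15 and -0.07 ± 0.18 (SE, limma adjusted p = 0.962 and 0.919). The array with the highest value differed between the 2 probe sets, GFP-positive replicate 2 for the first and GFP-positive replicate 3 for the second. The files do not tie either probe set to a transcript form.

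Epidermal genes, 7 measured of 10, among them targets of shavenbaby, had a median of 0.21, and none passed or had an unadjusted p under 0.05 (limma). The median was -0.041 without GFP-positive replicate 3, 0.026 with a pseudocount of 32 and 0.046 with the mean of all probe sets of a gene. grh, an epidermal transcription factor, differed by 0.26 ± 0.13 and neo, a protein of the apical matrix, by -0.13 ± 0.11 (SE). The summed linear signal of the list was 187 to 214 on GFP-positive and 173 to 197 on GFP-negative arrays, which overlapped.

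bam, the gene that starts differentiation of germline stem cell daughters in the adult, did not pass the test. Its signals were 4.57, 3.24 and 3.75 in GFP-positive, and 1.69, 1.33 and 2.98 in GFP-negative, cells. Every GFP-positive array was above every GFP-negative array, but the 3 GFP-negative values all lay below their arrays' highest controls. The difference was 1.85 ± 0.59 (SE, limma adjusted p = 0.164). The GFP-negative mean of 2.00 ± 0.87 (SD) is below the control level. Against a floor of 3.26, the mean over GFP-negative arrays of the highest control, the GFP-positive mean of 3.85 ± 0.67 was 1.50-fold higher. This sets the GFP-positive mean against the controls, not against the GFP-negative values of bam. It is not a lower limit of the difference either, since bam was not called. GFP-positive replicate 2 also lay below its own array's highest control of 3.43. With a pseudocount of 32 on the linear scale the log2 difference was 0.37, beside 0.35 for tud.

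**Figure D3:**
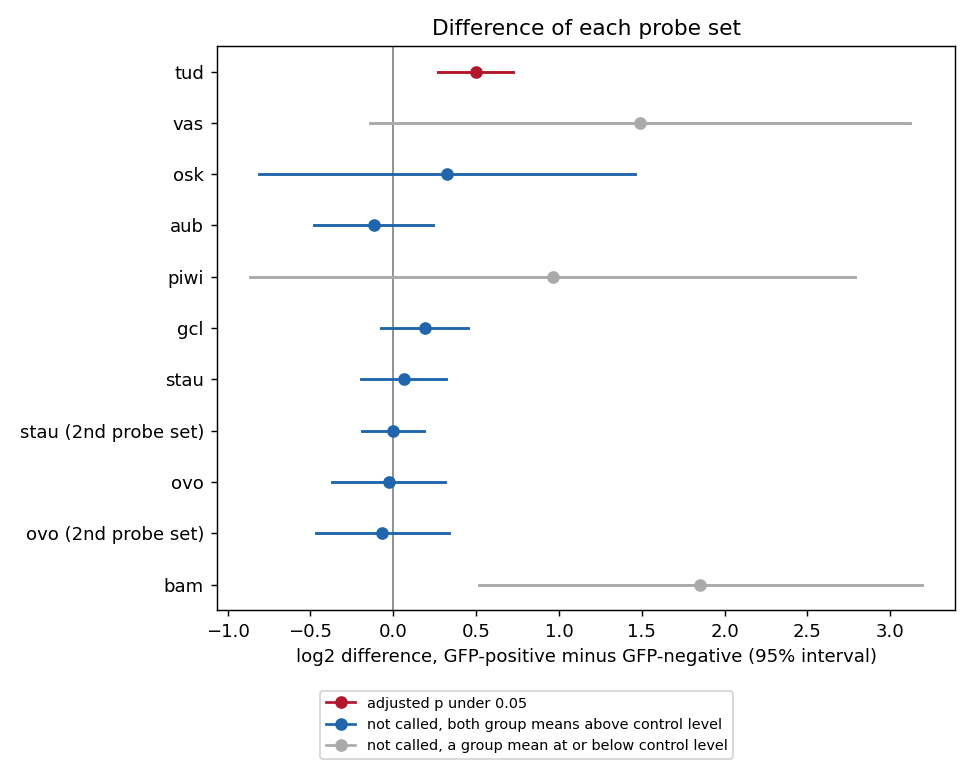
Log2 difference, GFP-positive minus GFP-negative, with its 95% interval (horizontal axis) for each probe set (vertical axis). tud, in red, is the called gene at 0.50, the intervals of gcl, stau, ovo and aub include 0, and vas, piwi and bam, in grey, have a group mean at or below the control level and wide intervals.

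Other genes of germline differentiation and sex determination, 11 measured of 13, had a median of 0.31, with 7 higher and 4 lower. Over the 6 genes with a mean over all arrays above the control level the median was 0.11. For the whole list it was 0.16 with the mean of all probe sets of a gene and 0.051 with a pseudocount of 32. Of the 11, 1 rose, 0 fell and 10 did not pass, where 1.5% of all genes rose and 0.968% fell. At an unadjusted p under 0.05 (limma), 3 of the 11 passed, where 15.6% of all genes did. Groups did not overlap for 4 higher genes and 1 lower gene, beside 9.28% and 11% of all genes. The called gene was mei-P26, a TRIM-NHL protein that acts with Bam in the ovary. Its signals were 5.94, 5.94 and 6.15 in GFP-positive, and 5.35, 5.42 and 5.18 in GFP-negative, cells. The groups were clearly apart, and the rise was 0.69 ± 0.12 (SE, limma adjusted p = 0.0204). Without single arrays the difference was 0.63 to 0.74, and the call held without GFP-negative replicate 2 (limma adjusted p = 0.0499) and was lost without each of the other 5 arrays. The switch gene of sex determination Sxl, the brightest of the list, differed by 0.31 ± 0.08 (SE, limma adjusted p = 0.103), and the deadenylase gene twin by -0.30 ± 0.11 (SE, limma adjusted p = 0.243).

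The labelled cell type and the cell types that germ cell genes are shared with were checked by further lists. Cardiac and early mesoderm markers, 14 measured of 16, had a median of 0.15, which was -0.099 without GFP-negative replicate 3 and 0.36 without either array numbered 1. Of the 14, 7 had an unadjusted p under 0.05, where 15.6% of all genes did. bap, a homeobox gene of dorsal and visceral mesoderm, rose by 0.42 ± 0.08 (SE, limma adjusted p = 0.0348), and the other 13 did not pass. Without any 1 array bap lost the call, with differences of 0.37 to 0.48. The heart factor gene Hand exceeded its array's highest control on 1 of 6 arrays. The T-box gene Doc1 and the GATA factor gene pnr differed by -0.21 ± 0.09 and -0.29 ± 0.13. The FGF receptor gene htl and the mesodermal factor genes twi and eve were singled out after their values were seen. They differed by 0.52 ± 0.14, 0.28 ± 0.11 and 0.34 ± 0.14 (SE, limma adjusted p = 0.118, 0.303 and 0.322). The T-box genes Doc3 and Doc2, also picked after their values were seen, went the other way. They differed by -0.36 ± 0.09 and -0.42 ± 0.13 (SE, limma adjusted p = 0.0823 and 0.164). Of the 14 genes, 8 had a higher and 6 a lower mean in GFP-positive cells. Groups did not overlap for 4 higher and 4 lower genes, beside 9.28% and 11% of all genes. The summed linear signal was 709 to 754 on GFP-positive and 665 to 755 on GFP-negative arrays, so these markers as a sum did not set the groups apart.

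Genes of the somatic gonad precursors, 7 measured of 10, had a median of 0.13, which was 0.060 with the mean of all probe sets of a gene and -0.023 after the adjustment for gene span. so, a homeobox gene whose product partners with that of eya, rose by 0.91 ± 0.11 (SE, limma adjusted p = 0.00487), and its call held without any 1 array. eya, its cofactor gene, differed by 0.17 ± 0.12, and raw, a gene of gonad shape, by 0.13 ± 0.10. Six4 and tj, named after their values were seen, went the other way. Six4 differed by -0.26 ± 0.13 (SE), and tj, with signals below the control level, by -0.31 ± 0.49. Of the 7 genes, 5 had a higher and 2 a lower mean in GFP-positive cells. Groups did not overlap for 2 higher genes and for 1 lower gene, Six4, beside 9.28% and 11% of all genes. The summed linear signal was 342 to 392 on GFP-positive and 308 to 322 on GFP-negative arrays, without overlap. Without so, a sum added after the data were seen, it was 278 to 322 against 272 to 286, and the groups overlapped. The part of these genes in the difference of tud was not tested. Neuroblast genes, 8 measured of 9, had a median of 0.06 and no limma call. Of the 8, 2 had an unadjusted p under 0.05, dpn as lower and ase as higher in GFP-positive cells, beside 15.6% of all genes. The summed signal of the neuroblast list was 1232 to 1300 against 1230 to 1291, which overlapped. mira and pros, the neuroblast adaptor and the cell fate factor it carries, differed by -0.12 ± 0.06 and 0.14 ± 0.08.

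**Figure D4:**
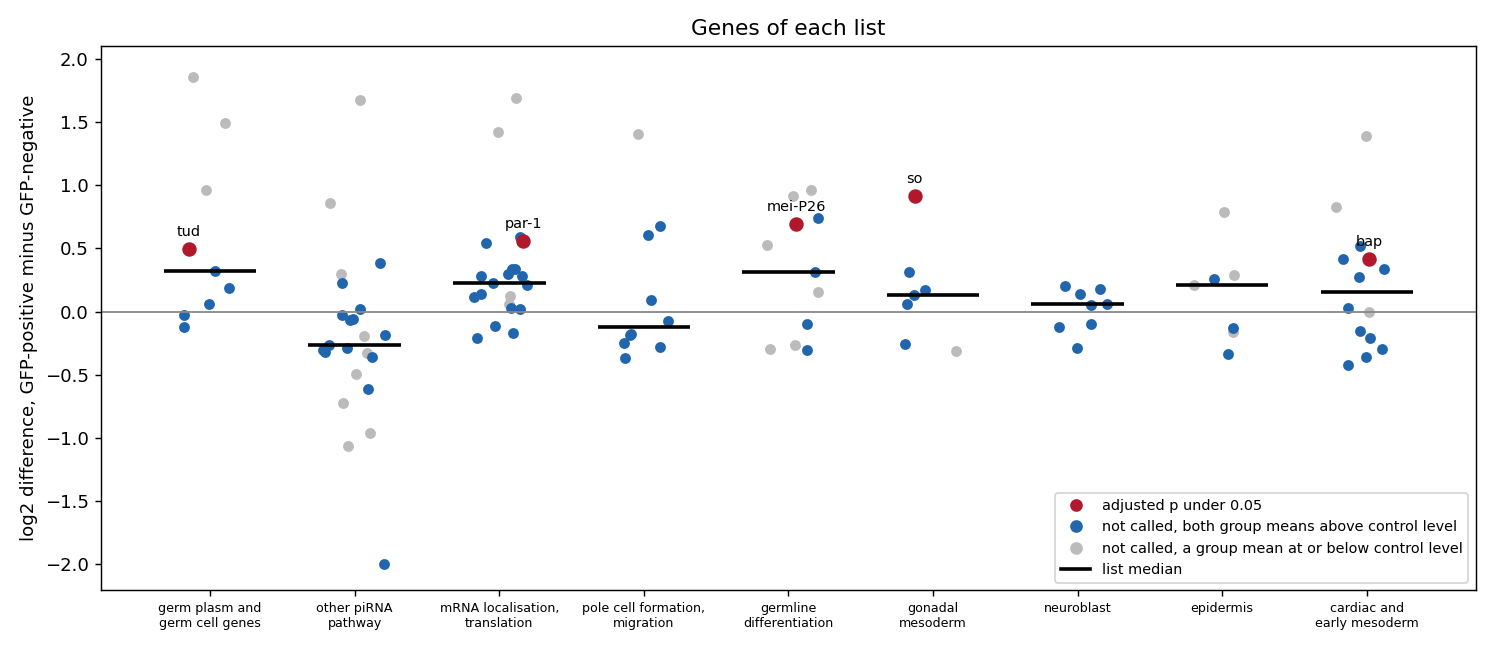
Log2 difference, GFP-positive minus GFP-negative (vertical axis), of each measured gene in the germ plasm and germ cell list and in 8 further lists (horizontal axis). Red points passed the test and are named, grey points have a group mean at or below the control level, and black bars are list medians. The called genes are tud, par-1, mei-P26, so and bap, and the other piRNA pathway genes have the lowest median, -0.27.

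The differences moved with the annotated span of the gene, the distance from its first to its last annotated base with introns. Over genes with a mean above 4, the median log2 difference went from -0.18 in the decile with the shortest spans to 0.24 in the decile with the longest. tud lies in decile 9, where the median was 0.15, and its 0.50 was above that. After each array was adjusted for this trend, tud differed by 0.39 ± 0.10 (SE) and was no longer called (limma adjusted p = 0.166). gcl, in decile 7, went from 0.19 to 0.17, and bam, in decile 4, from 1.85 to 1.92. stau, in decile 8, went from 0.06 to -0.03, and ovo, in the decile with the longest spans, from -0.03 to -0.17. mei-P26 went from 0.69 to 0.55 and lost its call as well (limma adjusted p = 0.0763). par-1 went from 0.56 to 0.41 and lost its call (limma adjusted p = 0.193). so went from 0.91 to 0.78 and bap from 0.42 to 0.50, and both kept theirs (limma adjusted p = 0.0130 and 0.0224). The list of mRNA localisation genes had its median reduced from 0.23 to 0.08, the other piRNA genes went from -0.27 to -0.18, and the 9 germ plasm and germ cell genes from 0.32 to 0.36. Both medians of the 9 genes are the value of osk, a gene of low signal (0.32 ± 0.50 before the adjustment, SE). They therefore do not show how the brighter members moved.

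**Figure D5:**
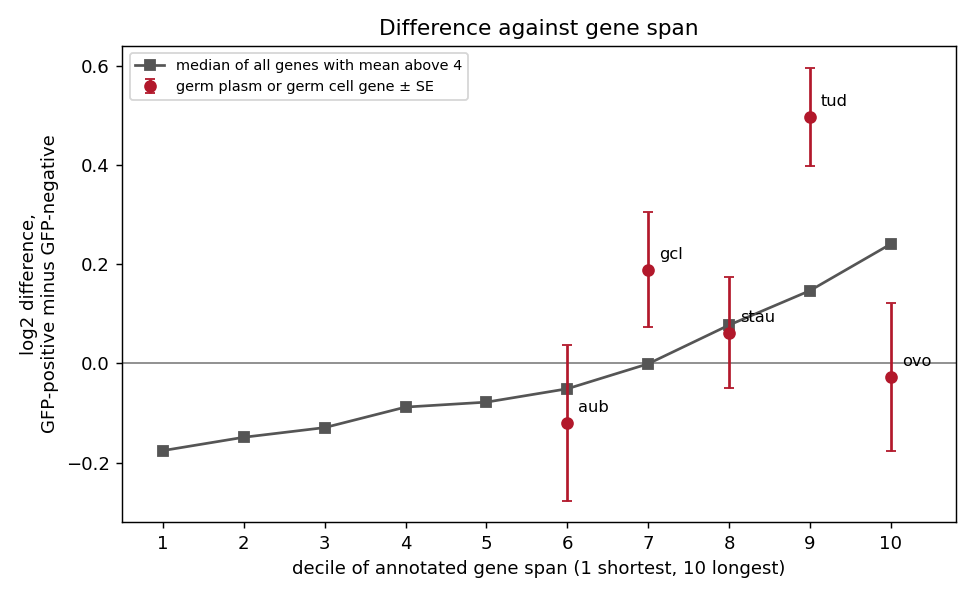
Log2 difference, GFP-positive minus GFP-negative (vertical axis), by decile of annotated gene span (horizontal axis). Squares are the medians of all genes with a mean above 4, from -0.18 to 0.24, and points are the 5 germ plasm or germ cell genes with a mean above 4, with SE. tud lies above the median of its decile, and ovo below.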

How the data were processed

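The table deposited by the authors holds log2 values, 1 for each probe set on each Affymetrix fly array. The submitters' processing notes name the affy package; how background was corrected, arrays scaled and probes summarised is not given in the sources used here. No source states the logarithm's base, which was read as 2, since 2 to the power of the values stays below the 65535 of a 16-bit scanner. No further scaling was applied. The 44 controls among the 14010 probe sets were not tested, which left 13966. Names came from the platform's annotation: 12443 probe sets have 1 gene, 327 have several and 1196 have none. Of the first, 12394 matched the reference gene table by Entrez identifier. The vas probe set carries an identifier not in that table and was matched by symbol. No build is named in the files, so no coordinates are given.

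Groups were compared with limma 3.58.1 in R 4.3.3 (lmFit, eBayes with trend and robust options, no block) over all 6 arrays, and the script was tested on simulated data. The members and lists, the choice of the level-dependent prior variance and the rule for named genes were made with earlier results of these data known. The rule takes all members, pgc, and per list up to 4 called genes, or the 2 brightest where fewer than 2 were called. A further marker named in it, and genes of the lists without a probe set here, are not analysed here. The small number of arrays limits the precision. Alternatives were a single prior variance, a replicate block, quantile normalization, median centring, leaving out the dimmest 40% of probe sets, a pseudocount of 32, array weights, a gene span adjustment, the mean of all probe sets of a gene, and each array left out.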

Additional observations from a re-analysis of the deposited data

How the results depend on the processing

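The count of probe sets called was 340, and it was 0 with a single prior variance, 655 without the dimmest 40% of probe sets, 142 after the gene span adjustment and 102 to 189 without single arrays. The count of germ plasm and germ cell genes called, 1, fell to 0 with the single prior variance, after the span adjustment and without any 1 array (0 to 0). Genes of the other lists called numbered 4, and 0, 8, 9 and 2 with the single prior variance, the replicate block, the dim filter and the span adjustment, and 1 to 2 without single arrays. The median log2 difference of the 9 genes was 0.085 with the pseudocount and 0.17 to 0.43 without single arrays. Signs turned for uncalled genes near 0: ovo was 0.0066 with array weights and -0.134 to 0.064 without single arrays (its second probe set -0.253 to 0.0686), stau -0.0316 after the span adjustment and -0.0237 to 0.163 without single arrays (its second probe set -0.0629 to 0.0604), and aub -0.241 to 0.0174. The cause was not tested, beyond fewer samples or fewer probe sets in the fits that leave some out. With the replicate number as a block, tud kept its call (limma adjusted p = 0.0453); deviations of same-numbered arrays correlated at 0.06, 0.01 and 0.02, under the 0.1 set for pairing, and replicate 2 did not correlate best with its own number, although the 18S rRNA signal went with the number on both arrays numbered 3. Low signal limits vas, piwi, osk and bam.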
